A study of Saccharomyces cerevisiae with 3 samples.

Results

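The positions described here are those of the 35S rRNA gene at which RNA polymerase I (Pol I) had just transcribed an A-rich stretch. A position was taken as A-rich when A filled 5 or more of the 10 bases that end at it, itself included, and neither G nor U filled 5. The deposited sequence alone chose them, so no occupancy value entered the choice. Of the 6849 positions with a whole window, 779 (11.4%) were A-rich, and 14 further windows with enough A were left out, 5 for G and 9 for U. Neighbouring windows overlap, so the 779 positions are not independent of each other. They formed 131 stretches, each a set of A-rich positions of one region whose windows overlap. Stretches spanned 10 to 46 bases and held a median of 4 A-rich positions.

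The samples were 3 *hmo1Δ* replicates of native elongating transcript sequencing (NET-seq), which maps the 3′ end of RNA still held by the polymerase and so gives Pol I occupancy at single-nucleotide resolution. The strain carries a deletion of *HMO1* (hmo1Δ::URA4) and, like the WT strain, a tagged Pol I subunit, (His)7-(HA)3-RPA135::TRP1, through which Pol I was purified. Both strains were grown in YEPD at 30 °C to an OD600 of 0.3. The comparison asks whether Pol I occupancy at A-rich positions differs between *hmo1Δ* and WT yeast in another way than at the other positions of the same region. WT enters only as the authors' median over libraries of an earlier series, with the authors' coefficient of variation as the only measure of its spread, so a difference between strains cannot be told apart from one between the series.

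Pol I transcribes the 35S precursor, from which the mature 18S, 5.8S and 25S rRNAs are cut, while the external (ETS) and internal (ITS) transcribed spacers are removed. Hmo1 is a high mobility group protein that binds actively transcribed rDNA. Inside an elongating polymerase the newest RNA bases pair with the template strand, and a stretch of A paired with T makes a weak hybrid. Weak hybrids are known in other polymerases to favour backward sliding and pausing.

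The sequences below show the longest A-rich stretch of each region, from the first base of its first window to its last A-rich position, with A in capitals. The deposited table places them on chromosome XII of assembly R64-1-1, where the gene *RDN37-2* (460712 to 467569) is transcribed toward lower coordinates. Each is written in the direction of transcription.
ETS1, positions 13 to 49, chrXII:467521-467557: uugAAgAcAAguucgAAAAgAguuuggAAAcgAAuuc
18S, positions 1211 to 1250, chrXII:466320-466359: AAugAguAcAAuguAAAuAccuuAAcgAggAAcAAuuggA
ITS1, positions 2493 to 2529, chrXII:465041-465077: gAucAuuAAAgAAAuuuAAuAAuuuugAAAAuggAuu
5.8S, positions 2853 to 2879, chrXII:464691-464717: AAAuAuuAAAAAcuuucAAcAAcggAu
ITS2, positions 3211 to 3227, chrXII:464343-464359: AucgAuAAgAAgAgAgc
25S, positions 3611 to 3656, chrXII:463914-463959: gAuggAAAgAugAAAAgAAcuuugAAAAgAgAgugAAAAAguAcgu
ETS2, positions 6694 to 6717, chrXII:460853-460876: uuAgAgAgAAguAgAcugAAcAAg
The windows that open the ITS1 and 5.8S stretches reach back across the region border. Positions are numbered from the start of the transcript.

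The 779 windows were 54.0% A, 11.8% C, 17.1% G and 17.0% U, against 27.0%, 18.7%, 26.4% and 27.99% over all 6849 windows. An A stood at the position itself in 54.8% of them, against 27.0% of all positions. Most of the windows were mixed purine and pyrimidine sequence rather than unbroken A. A run of AAA occurred in 58.0% of A-rich windows and in 14.0% of all windows, AAAA in 21.3% and 3.21%, and AAAAA in 7.96% and 0.905%, searched on the RNA strand only. The motif GAAA was in 20.5% of A-rich windows, against 5.15% of all windows, and some of these matches overlap a run of AAA. Windows chosen by their A are bound to hold more A, more runs of A and more motifs made mostly of A. All 62 windows with AAAAA were A-rich. These shares describe the choice and are not a finding about it. The flanks were close to the gene average, with 29.1% A in the 10 bases before the window and 29.4% in the 10 bases after it. ITS1 was the region richest in such positions, with 81 of 361 (22.4%), and ITS2 the poorest, with 18 of 232 (7.76%). ETS1 held 98, 18S 198, 5.8S 20, 25S 341 and ETS2 23.

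Occupancy was deposited as normalized counts (RPM), scaled so that the positions up to the T1 terminator sum to 1000000 in each library. The 3 replicates held 3700346, 1984305 and 2810265 reads up to T1, and the median A-rich position 387, 187 and 285 reads, which gives counting errors of 5.08%, 7.31% and 5.92%. No A-rich position was listed at 0 in both strains. The lowest *hmo1Δ* median among them was 0.504 RPM, the middle one 102 RPM and the highest 1238 RPM. The spread over replicates was like that of the rest of the gene, with a median coefficient of variation of 11.2% at A-rich and 10.7% at other positions. The authors' coefficient for WT had a median of 9.80% at A-rich and 10.01% at other positions.

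Taken over the whole gene, A-rich positions did not stand apart from the others, either in occupancy or in its change without Hmo1. Levels were compared as mean log2(RPM + 1) at A-rich minus other positions of the same region, weighted by the A-rich positions of each region. This difference was 0.01, -0.08 and 0.03 in replicates 1, 2 and 3, a mean of -0.01 ± 0.06 (SD, n = 3), and 0.01 in the authors' WT median. Replicate 2 was the only one below 0. The sources do not say whether a coordinate marks the last base added, and with the window ending 1 position upstream the level difference was -0.22. A-rich positions held 10.1% ± 0.31 (SD, n = 3) of summed occupancy in *hmo1Δ* and 10.1% in WT. All 3 *hmo1Δ* replicates lay above the WT median at 350 A-rich positions (44.9%), where the share over all positions of the gene was 44.2%. All 3 lay below it at 293 (37.6%), against 37.2% of all positions. At the remaining 136 the replicates fell on both sides. The side of a position depends on the scale, since the median position was higher in *hmo1Δ* than in WT by 0.18, 0.16 and 0.11 on the log2 scale in replicates 1, 2 and 3. With every column divided by its own median, 294 A-rich positions (37.7%) were above WT and 356 (45.7%) below, with 37.0% and 46.7% of all positions, so the larger side turned for A-rich positions and for the gene alike. In 25S it turned as well, to 113 above and 157 below, while the larger side in each other region was the same on both scales. The change, as log2 of RPM + 1 over the WT median + 1, differed between A-rich and other positions by 0.00107, -0.09 and 0.02 in the 3 replicates, a mean of -0.02 ± 0.06 (SD, n = 3). A 2-sided exact sign-flip permutation test over the replicates gave *p* = 1 for both differences. With 3 replicates this test cannot go below 0.25, so none of the differences reported here can pass a threshold of 0.05, and they rest on their size against the spread between replicates. Changes beyond 2-fold with all 3 replicates on one side occurred at 135 A-rich positions above WT (17.3%, against 15.1% of other positions) and at 32 below (4.11%, against 2.59%). Most A-rich positions, 559, lie in the mature rRNAs, where the difference in change was -0.05 ± 0.08 (SD, n = 3). At the 220 in the spacers it was small but above 0 in each replicate, at 0.05, 0.04 and 0.05. The level difference in the spacers was 0.08 ± 0.01 in *hmo1Δ* and 0.03 in WT.

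**Figure D1:**
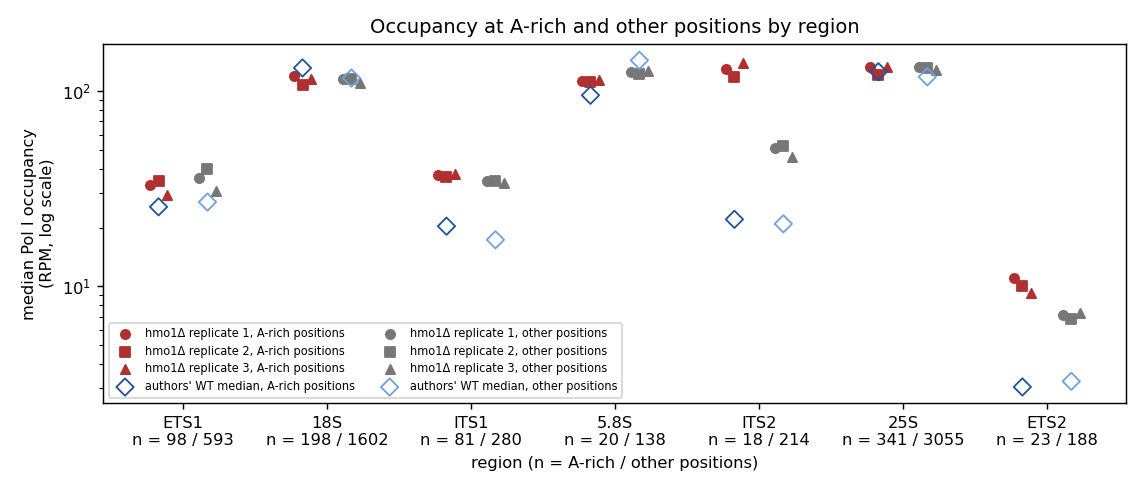
Median Pol I occupancy (RPM, log scale) of A-rich positions (red, with WT in dark blue) and of the other positions (grey, with WT in light blue) of each region, one point per *hmo1Δ* replicate and an open diamond for the authors' WT median. In ITS2 the 3 replicates had A-rich medians of 131, 119 and 140 RPM, all above the other positions of ITS2 at 51.3, 52.4 and 46.3 RPM.

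The regions behind the average over the whole gene differed in direction. In 18S, the RNA of the small ribosomal subunit, A-rich positions were lower in *hmo1Δ* relative to the rest of the region. Their median occupancy was 120, 108 and 116 RPM in replicates 1, 2 and 3 against a WT value of 132 RPM, whereas the other 18S positions had 116, 116 and 110 RPM against 117 RPM. All 3 replicates were below the WT median at 122 of 198 A-rich positions (61.6%), where 49.8% of all 18S positions were below. They were above it at 40 (20.2%), where 32.6% of all 18S positions were above. The mean log2 change was -0.28 ± 0.10 (SD, n = 3) at A-rich and 0.00402 ± 0.05 at other 18S positions. The difference was -0.23, -0.42 and -0.22 in the 3 replicates, a mean of -0.29 ± 0.11 (SD, n = 3), below 0 in 3 of 3 and largest in replicate 2. The exact sign-flip permutation test gave *p* = 0.25, and 0.417 after Benjamini-Hochberg adjustment over the 10 groupings tested, made of the gene, the spacers, the mature rRNAs and the 7 regions. In WT the A-rich positions of 18S had stood above the other positions, by 0.26 on the log2 scale, and in *hmo1Δ* the difference was -0.03 ± 0.11 (SD, n = 3).

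The lower values in 18S were spread over many stretches. Summed over a stretch, all 3 replicates were below WT in 21 of its 32 stretches and above WT in 7. Other positions were not summed in this way, and of all 18S positions 49.8% were below WT and 32.6% above. Over equal parts of 18S, the difference in log2 change between A-rich and other positions was -0.23 ± 0.11 (SD, n = 3) at positions 701 to 1300, -0.41 ± 0.13 at positions 1301 to 1900 and -0.01 ± 0.05 at positions 1901 to 2500. The first part had 48 of 77 A-rich positions with all replicates below WT and 14 above, with 53.7% and 27.5% of all its positions. The middle part had 61 of 83 below and 9 above, with 54.0% and 31.3% of all its positions. The last part had 13 of 38 below and 17 above, with 41.8% and 38.8% of all its positions. The stretch from position 1173 to 1186, with the sequence AgugAcAAuAAAuAAcgAuAcAg (chrXII:466384-466406), averaged 235 ± 18.7 RPM (SD, n = 3) against 344 RPM in WT, and 11 of its 14 A-rich positions were below WT in all replicates. The next stretch, from 1220 to 1250, averaged 173 ± 14.7 RPM against 198 RPM. Mature rRNA is known to be carried over into libraries of this kind, and its part in the values of 18S, 5.8S and 25S was not tested.

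**Figure D2:**
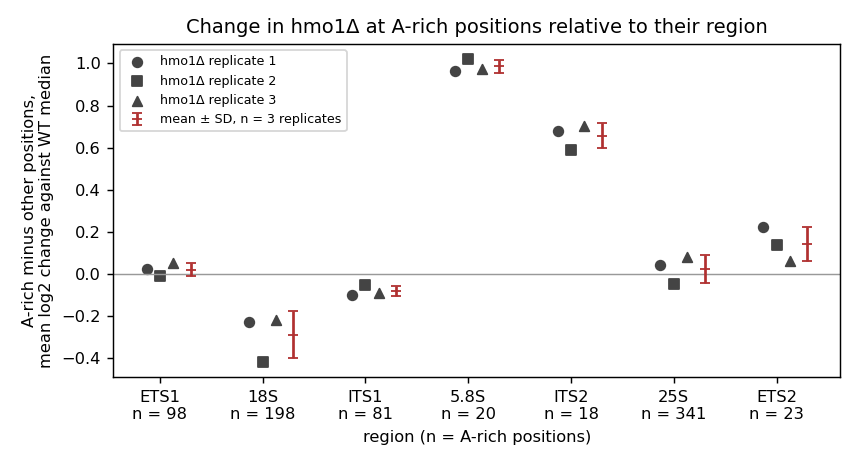
Mean log2 change of A-rich positions minus that of the other positions of the same region, for each *hmo1Δ* replicate (grey symbols), with the mean and SD over the 3 replicates (red). The 3 replicates lie below 0 in 18S, at -0.23, -0.42 and -0.22, and in ITS1, at -0.10, -0.05 and -0.09, and above 0 in 5.8S, ITS2 and ETS2.

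ITS2, the spacer between 5.8S and 25S, had A-rich positions that were on average higher than its other positions in both level and change. All 3 *hmo1Δ* replicates were above WT at 15 of its 18 A-rich positions (83.3%) and below at 1, where 82.8% and 8.19% of all ITS2 positions were so. The shares on each side were thus close to those of the whole spacer, and the difference lay in the size of the change. The median A-rich position had 131, 119 and 140 RPM against 22.0 RPM in WT, and the other positions 51.3, 52.4 and 46.3 RPM against 20.9 RPM. By mean log2 level the A-rich positions of ITS2 already stood 0.59 above the others in WT, and 1.25 ± 0.06 (SD, n = 3) above them in *hmo1Δ*. The log2 change was 1.70 ± 0.06 (SD, n = 3) at A-rich and 1.04 ± 0.05 at other positions, a difference of 0.66 ± 0.06 (higher in 3 of 3 replicates, exact sign-flip permutation *p* = 0.25). The 18 positions lie in 5 stretches. The stretch from position 3113 to 3116, which ends the sequence uccAAAgAgAggu (chrXII:464454-464466), averaged 300 ± 30.6 RPM (SD, n = 3) against 68.8 RPM. Without it the difference was 0.45 ± 0.10 (SD, n = 3). The higher change was not shared by all 18. Relative to the mean of ITS2, the 9 that end in A had a change of -0.12 ± 0.14 (SD, n = 3). The 6 that end in G had 0.86 ± 0.07, the 2 that end in U 2.81 ± 0.24 and the 1 that ends in C 1.22 ± 0.27.

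In 5.8S the change was higher at A-rich positions than in the rest of the region, while their level was lower, and most of the difference in change came from a single stretch. The median A-rich position had 113, 112 and 115 RPM against 95.4 RPM in WT, and the other positions 126, 122 and 128 RPM against 144 RPM. The level difference was -0.55 ± 0.03 (SD, n = 3) on the log2 scale in *hmo1Δ* and -1.53 in WT. All 3 replicates were above WT at 15 of 20 A-rich positions (75.0%), where 32.3% of all 5.8S positions were above, and below at 4, where 51.9% of all were below. The difference in log2 change was 0.99 ± 0.03 (SD, n = 3). The stretch at positions 2862 to 2879 holds 12 of the 20 positions, all above WT, and covers the 5′ end of 5.8S. It averaged 121 ± 9.99 RPM (SD, n = 3) against 63.7 RPM in WT, and without it the difference was 0.14 ± 0.06. The lower level rested on this stretch as well. Its 10 positions without G in the window lay at -2.22 ± 0.06 from the mean of the region on the log2 scale. The A-rich positions of 5.8S with 1, 2 and 3 G lay above that mean, at 0.30 ± 0.04, 1.64 ± 0.15 and 1.15 ± 0.05. The 3 stretches at positions 2922, 2941 and 2958, each a single position, were below WT in all replicates.

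In ITS1 the A-rich positions were above WT, by slightly less than the rest of that spacer. All 3 replicates were above at 68 of 81 (84.0%) and below at 8 (9.88%), where 80.1% and 10.5% of all ITS1 positions were so. The log2 change was 0.94 ± 0.03 (SD, n = 3) at A-rich and 1.02 ± 0.04 at other positions. The difference was -0.10, -0.05 and -0.09 in the 3 replicates, a mean of -0.08 ± 0.02, below 0 in 3 of 3 (exact sign-flip permutation *p* = 0.25). It turned to 0.0105 without the 10 positions at each end of a region and to 0.33 with the last position of each stretch alone. Lower than WT was the stretch at positions 2711 to 2717, with the sequence uucAAuAcAAcAcAcu (chrXII:464853-464868), where WT had 54.7 RPM and *hmo1Δ* a mean of 35.6 ± 5.12 RPM (SD, n = 3). Of the 9 ITS1 stretches it was the only one with all replicates below WT, although 3 of its 7 A-rich positions were above and 3 below. The stretch just before it, at positions 2691 to 2700, had 65.9 ± 5.71 RPM against 28.5 RPM.

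ETS2, which ends the transcript and holds the T1 terminator, had 23 A-rich positions in 4 stretches. All 3 replicates were above WT at 20 of them (87.0%) and below at 0, where 79.1% and 3.79% of all ETS2 positions were so. Levels were low, with medians of 11.1, 10.1 and 9.25 RPM against 3.05 RPM, and the difference from the other positions, 0.14 ± 0.08 (SD, n = 3), varied from 0.22 in replicate 1 to 0.06 in replicate 3. Their level was also above that of the other positions, by 0.21, 0.12 and 0.05 in replicates 1, 2 and 3, where WT had -0.02. In ETS1 all replicates were above WT at 46 of 98 A-rich positions (46.9%, with 48.6% of all ETS1 positions) and below at 33 (33.7%, with 31.8% of all). In 25S the numbers were 146 of 341 above (42.8%, with 41.4% of all 25S positions) and 125 below (36.7%, with 37.8% of all). The differences in log2 change, 0.02 ± 0.03 in ETS1 and 0.03 ± 0.07 in 25S (SD, n = 3), were within the spread between replicates.

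A near-zero difference in ETS1 hid stretches that were far from WT on both sides. Of its 14 stretches, 7 were above and 6 below WT in all replicates. Other positions were not summed in this way, and of all ETS1 positions 48.6% were above WT and 31.8% below. The summed log2 ratios ran from -2.29 to 1.94. The lowest was that of a single position, 237, with 6.27 ± 1.94 RPM (SD, n = 3) against 29.6 RPM in WT. The last 4 stretches toward the 3′ end of ETS1 are shown because they alternate over a short distance.
Positions 548 to 573, chrXII:466997-467022: AgcAgAgAgAccugAAAAAgcAAuuu
Positions 594 to 611, chrXII:466959-466976: ccAAAcucAAuAAguAuc
Positions 618 to 629, chrXII:466941-466952: cAAgAgggAAuA
Positions 631 to 653, chrXII:466917-466939: gugggAAAAAAAAAAAgAgAuuu
Mean occupancy at their A-rich positions was 57.3 ± 1.47 RPM (SD, n = 3) against 30.0 RPM in WT for the first. It was 22.3 ± 3.06 RPM against 57.8 RPM for the second, 156 ± 27.4 RPM against 40.1 RPM for the third, and 34.3 ± 2.03 RPM against 56.9 RPM for the last. The replicates of each stretch lay closer to each other than to WT, and the direction turned from each stretch to the next. In the second the mean rests on few positions, with 3 of its 8 A-rich positions above WT and 2 below in all replicates, position 610 among the latter.

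Positions with 5 A, just inside the limit, had a level of 0.12 ± 0.05 (SD, n = 3) on the log2 scale above the mean of their region, and positions with 4 A, just outside it, 0.05 ± 0.01. Their changes against WT, again as deviations from the region, were -0.02 ± 0.05 for the 543 positions with 5 A and -0.00162 ± 0.01 for the 1187 with 4 A. The 177 positions with 6 A and the 47 with 7 A were low in both strains. Their levels were -0.23 ± 0.06 and -0.61 ± 0.07 in *hmo1Δ* and -0.22 and -0.69 in WT, and their changes -0.01 ± 0.06 and 0.08 ± 0.07. At the 12 positions with 8 to 10 A the level was -0.18 ± 0.24 in *hmo1Δ* and 0.48 in WT, and the change was -0.66 ± 0.24 (SD, n = 3). All replicates were below WT at 8 of them (66.7%) and above at 2 (16.7%), with 37.2% and 44.2% of all positions of the gene. These 12 lie in 3 stretches, and all windows with 9 or 10 A belong to the A tract of ETS1. The 7 positions with 8 A had a change of -0.16 ± 0.17, with 3 below WT and 2 above. Outside ETS1 the 47 positions with 7 or more A had a change of 0.15 ± 0.06.

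**Figure D3:**
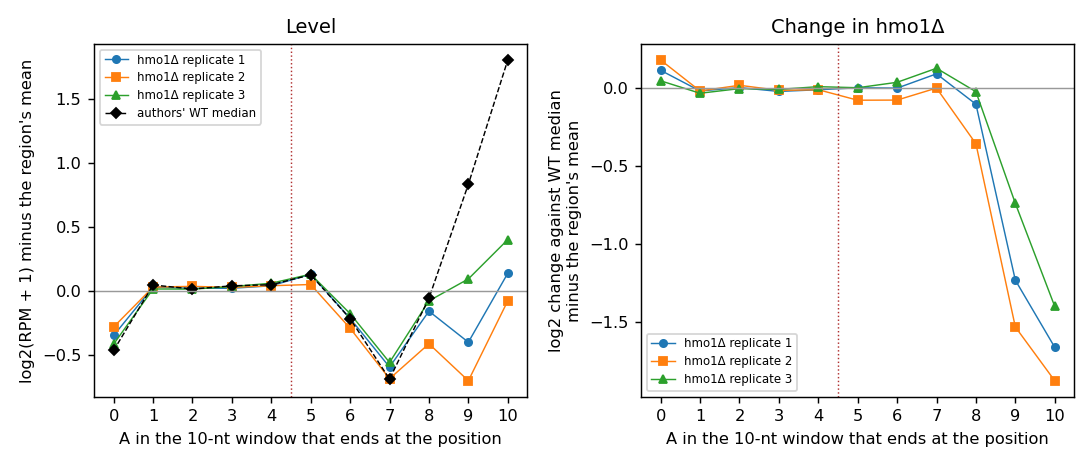
Level (left, log2(RPM + 1)) and change against the WT median (right, log2), each minus the region's mean, by the number of A in the 10-nt window, one line per *hmo1Δ* replicate and a dashed line for the authors' WT median. The dotted line is the limit between 4 and 5 A. The means of the change at 9 A (-1.17, 3 positions) and 10 A (-1.65, 2 positions) come from a single tract.

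This A tract, the longest unbroken run of A in the gene, had lower occupancy in *hmo1Δ*, with the widest gap where the window is A alone. At position 640, where the window first holds 5 A, the replicates had 68.6, 74.1 and 76.9 RPM against 92.8 RPM in WT. Position 643, with 8 A, had 52.2, 56.4 and 52.0 RPM against 72.9 RPM. At position 645, the end of the first window made of A alone, they had 33.5, 33.3 and 31.3 RPM against 101 RPM, and at position 646, with a window of A alone as well, 41.6, 35.3 and 50.5 RPM against 107 RPM. The WT value thus exceeded the *hmo1Δ* mean by 1.27-fold at position 640 and by 3.10-fold at position 645. The gap did not grow evenly, with 39.3 ± 1.32 RPM (SD, n = 3) against 73.5 RPM at position 642. Nor was it particular to A-rich positions. Upstream, positions 622, 623 and 637, which are not A-rich, averaged 53.4, 116 and 52.4 RPM against 470, 483 and 105 RPM. Positions 625 and 626, not A-rich either, were above WT, at 328 and 497 RPM against 90.6 and 146 RPM. All replicates were below WT at 10 of the 14 A-rich positions of this tract, from position 640 to 649, and above it at the last 3, from position 651 to 653, where no replicate exceeded 36.8 RPM. Leaving this tract out, the ETS1 difference was 0.14 ± 0.01 (SD, n = 3) in place of 0.02 ± 0.03.

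**Figure D4:**
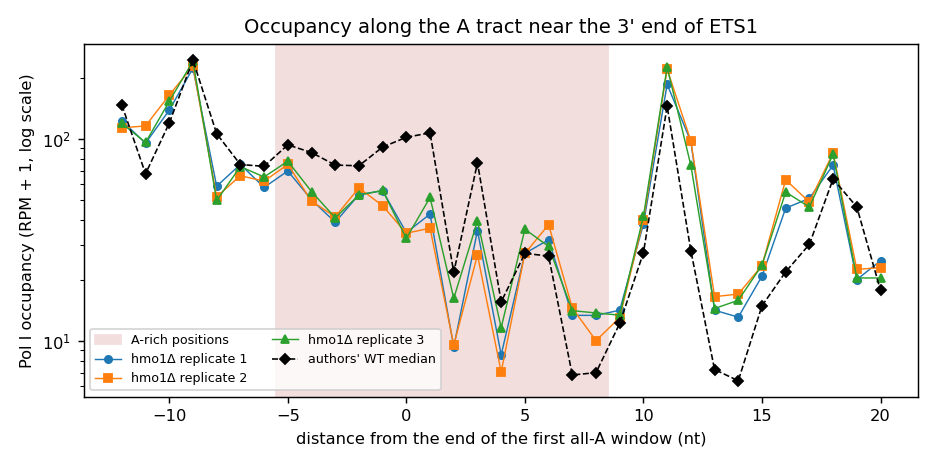
Pol I occupancy (RPM + 1, log scale) in the 3 *hmo1Δ* replicates and the authors' WT median by distance in nucleotides from the end of the first all-A window, with A-rich positions shaded. The replicates lie below WT at every shaded position from -5 to 4 nt, and at 0 nt they have 33.5, 33.3 and 31.3 RPM against 101 RPM.

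The level went with the base at the 3′ end. The 427 A-rich positions that end in A were 0.23 ± 0.06 (SD, n = 3) above the mean of their region on the log2 scale in *hmo1Δ* and 0.31 in WT. Those ending in C, G or U were below it, at -0.40 ± 0.04, -0.32 ± 0.09 and -0.24 ± 0.07 in *hmo1Δ* and at -0.48, -0.13 and -0.44 in WT. Other positions that end in A stood higher still, at 0.43 ± 0.03 in *hmo1Δ* and 0.54 in WT. The change without Hmo1 ordered differently. It was 0.20 ± 0.07 at the 146 A-rich positions ending in U, 0.09 ± 0.04 at the 91 ending in C, -0.07 ± 0.06 at those ending in A and -0.19 ± 0.09 at the 115 ending in G. The values for U and for G were further apart than their spreads. Other positions had the same signs, with 0.10 ± 0.04 for U, 0.04 ± 0.02 for C, -0.11 ± 0.03 for A and -0.03 ± 0.03 for G. All replicates were below WT at 34 of the A-rich positions ending in U (23.3%) and at 51 of those ending in G (44.3%), with 37.2% of all positions below. The order was not the same in every region. A-rich positions ending in C had -0.30 ± 0.14 in 18S and -0.42 ± 0.07 in ITS1, but 0.21 ± 0.02 in 25S and 0.38 ± 0.01 in ETS1. Those ending in G had -0.66 ± 0.17 in ITS1 and 0.86 ± 0.07 in ITS2, with 6 positions in each. Those ending in U had -0.05 ± 0.09 in 18S and 0.55 ± 0.18 in ITS1.

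The base that follows, which Pol I would add next, also went with the change. A-rich positions followed by C had a change of 0.18 ± 0.03 (SD, n = 3) and those followed by U 0.11 ± 0.02, while those followed by G had -0.13 ± 0.08 and those followed by A -0.19 ± 0.09. All 3 replicates were above WT at 87 of 146 followed by C (59.6%) and at 80 of 227 followed by A (35.2%), with 44.2% of all positions above. At other positions followed by C or A the changes were 0.20 ± 0.04 and -0.12 ± 0.03, in the same order as at A-rich positions.

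Among A-rich positions the change differed with the other bases of the window. A-rich positions with 4 G in the window (49 positions in 23 stretches) were 1.12 ± 0.01 (SD, n = 3) above the mean of their region in *hmo1Δ* and 0.48 above it in WT. Their change was 0.64, 0.64 and 0.63 in the 3 replicates, a mean of 0.64 ± 0.01, and all replicates were above WT at 37 of them (75.5%), where 44.2% of all positions of the gene were above. With 3 G the change was 0.10 ± 0.04, with 2 G -0.05 ± 0.07, with 1 G -0.21 ± 0.07 and with no G -0.01 ± 0.07. The change at other positions also rose with G, from -0.27 ± 0.08 with no G to 0.22 ± 0.06 with 4 G. Other positions with 4 G thus had a smaller change, and a lower level of 0.36 ± 0.06. All replicates were above WT at 613 of these 1110 positions (55.2%). The 3 replicates of the A-rich set lay above the 3 of the other set in change and in level. By region the 4-G positions numbered 28 in 25S, 8 in ETS1, 5 in ETS2, 4 in ITS2, 2 in 18S and 2 in ITS1. Their change was 0.28 ± 0.06 (SD, n = 3) in 25S, 1.496 ± 0.09 in ETS1, 2.14 ± 0.12 in ITS2, 0.32 ± 0.21 in ETS2, 0.62 ± 0.05 in 18S and 0.08 ± 0.13 in ITS1.

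U went the other way. A-rich windows without U had a change of 0.24 ± 0.04 (SD, n = 3) over 100 positions, and those with 4 U -0.36 ± 0.10 over 37. With 1, 2 and 3 U it was 0.09 ± 0.04, -0.15 ± 0.06 and -0.09 ± 0.11, so the fall was not even. Other positions fell as well, from 0.38 ± 0.06 without U to -0.14 ± 0.02 with 4 U. A-rich windows hold fewer G and fewer U than the others. Compared with other positions of the same region and the same number of G, A-rich positions had a change higher by 0.11, 0.08 and 0.15 in the 3 replicates, a mean of 0.11 ± 0.03. Compared at the same number of U, they were at -0.14, -0.29 and -0.13, a mean of -0.19 ± 0.09. The sign of the difference over the whole gene thus depended on the positions chosen for comparison. Numbers of G, U and A in a window are tied to each other, and their separate parts were not tested.

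**Figure D5:**
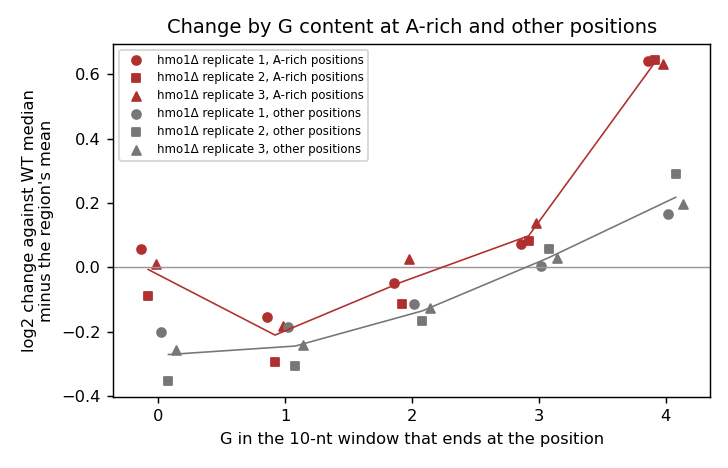
Change against the WT median (log2, minus the region's mean) by the number of G in the 10-nt window, for A-rich (red) and other positions (grey), one symbol per *hmo1Δ* replicate and a line through the means. At 4 G the A-rich replicates lie at 0.63 to 0.64 and the other positions at 0.17 to 0.29.

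Single positions were chosen by level and by size of change, under a rule described with the methods. The 5 A-rich positions with the highest *hmo1Δ* median were all in mature rRNAs. Position 3623 in 25S, at the end of ggAAAgAugA, had 1088, 1238 and 1439 RPM against 1397 RPM in WT, so its replicates fell on both sides. Position 1174 in 18S had 888, 838 and 974 RPM against 1116 RPM, and position 1631 in 18S, at the end of gAAgAcuAAc, 745, 694 and 837 RPM against 1500 RPM, the highest WT value of any A-rich position. Both were below WT in every replicate. Position 2878 in 5.8S had 672, 829 and 790 RPM against 379 RPM, and position 3271 near the 5′ end of 25S 715, 693 and 740 RPM against 358 RPM, both above WT in every replicate.

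The spacer positions furthest above WT were in ITS2 and ETS1. The longer sequences show the 20 bases before the window in lower case, with A in capitals only in the window.
Position 3116, ITS2, chrXII:464454-464483: ucauuggauguuuuuuuuccAAAgAgAggu
Position 539, ETS1, chrXII:467031-467060: agaguguaaaagcuuuuugaAcAgAgAgcA
Position 3075, ITS2, chrXII:464495-464524: gagugauacucuuuggaguuAAcuugAAAu
Position 610, ETS1, chrXII:466960-466989: auuucagcuguuuccaaacucAAuAAguAu
Position 888, 18S, chrXII:466682-466711: ucuagagcuaauacaugcuuAAAAucucgA
Position 1181, 18S, chrXII:466389-466418: auucagggagguagugacaauAAAuAAcgA
Position 3116 had 489, 595 and 425 RPM against 19.3 RPM in WT, 26.05-fold higher, and its neighbour 3115 had 244, 279 and 204 RPM against 21.9 RPM. Position 539 had 269, 309 and 207 RPM against 20.3 RPM, 12.9-fold higher, and its neighbour 538 had 159, 177 and 106 RPM against 12.9 RPM. Position 3075 had 196, 196 and 129 RPM against 17.97 RPM, 9.66-fold higher. In these 5 the lowest replicate was at least 100 RPM while WT was under 22 RPM, and replicate 3 was the lowest in each.

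On the other side, position 610 in ETS1 had 35.7, 29.7 and 22.8 RPM against 330 RPM in WT, which was 11.2-fold higher. Position 2712 in ITS1 had 37.8, 27.7 and 38.1 RPM against 180 RPM, and the adjoining position 2711 had 23.5, 16.1 and 23.5 RPM against 108 RPM. Position 419 in ETS1 had 153, 134 and 144 RPM against 526 RPM. Positions 2711 and 2712 adjoin and share most of their windows, as do 538 and 539 and 3115 and 3116. The last of the 5 below, position 645, lies in the A tract.

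In the mature rRNAs, the 5 positions furthest below WT were all in 18S. Position 888 had 31.3, 28.7 and 32.7 RPM against 193 RPM in WT, which was 6.25-fold higher, and position 1181 had 90.5, 89.2 and 100 RPM against 517 RPM, 5.53-fold higher. Positions 780, 1563 and 1911 had means of 107 ± 5.22, 94.3 ± 11.1 and 162 ± 8.73 RPM (SD, n = 3) against 321, 247 and 423 RPM. All 5 end in A. The 5 furthest above lay outside 18S. Position 2866, near the 5′ end of 5.8S, had 75.4, 66.5 and 50.5 RPM against 7.99 RPM. Positions 4100 and 4101 in 25S, in the stretch that ends cAgAggAAAcu, had 192 ± 26.8 and 147 ± 37.7 RPM (SD, n = 3) against 23.96 and 20.3 RPM, 8.01-fold and 7.22-fold higher. Positions 5403 and 5404 in 25S had 65.4 ± 5.70 and 146 ± 7.95 RPM against 10.2 and 24.1 RPM.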

How the data were processed

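Duplicate reads were removed by the authors from their UMI (fqtrim) before adaptor trimming (cutadapt 3.4), alignment to R64-1-1 (STAR 2.7.1a) and counting at each position (bedtools 2.28.0). How reads were shared among rDNA copies is not given in the sources used here, nor is the offset between a coordinate and the last incorporated nucleotide. The deposited *hmo1Δ* and WT median columns hold RPM, scaled to 1000000 over the positions up to T1 (position 6739). A deposited score column holds the authors' coefficient of variation for WT. Single WT replicates (3 columns, another series) were not used, nor were the authors' WT mean or the authors' difference, ratio and *p*-value columns.

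Values are log2(RPM + 1) or its change against the WT median, taken per replicate and compared within regions, with an exact sign-flip permutation test over the replicates. Each replicate had its own volume of culture, and whether these were independent cultures is not given, so the spread may be technical in part. Depth came from the step between low values, with 99.9% of positions or more whole multiples (within 0.01 read). Errors cover counting or replicates only. Named positions were the 5 with the highest *hmo1Δ* median, the 5 furthest above and below WT with all replicates on that side and at least 50 RPM in either strain (spacers and mature rRNAs apart), those with most A, and the longest stretch per region. Positions and lists were chosen with earlier results of these data known. Python 3.11.15, numpy 2.4.6, pandas 2.3.3, scipy 1.17.1 and matplotlib 3.10.9 were used, and the comparison was tested on simulated profiles. Alternatives covered the pseudocount, scaling of each column by its median, filters, the A limit, the window, the comparison set and each replicate.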

Additional observations from a re-analysis of the deposited data

How the results depend on the processing

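The lower change at A-rich positions of 18S kept its direction under all 12 alternatives, from -0.31 to -0.18, and from -0.32 to -0.22 when 1 replicate was left out. In ITS2 the difference stayed above 0 (0.38 with medians over positions to 1.31). The sign in ITS1 turned, to 0.0105 without 10 positions at each region end and to 0.33 with only the last position of each stretch. The cause of these shifts was not tested. At least 6 A gave changes of -0.49 in ETS1, -0.11 in ITS1, 1.77 in 5.8S, 1.31 in ITS2, 0.10 in 25S, 0.0458 in ETS2 and 0.47 with 4 G, a level of -0.32, 2.41% of occupancy, and 114 positions above and 82 below WT (34 below in 18S). At least 4 A with no base more frequent gave 0.39 in 5.8S, 0.41 in ITS2 and 0.399 with 4 G, 26.6% of occupancy, and 836 above and 734 below (275 in 18S). The last position of each stretch gave 0.10 for the gene, 0.106 for 5 A, 0.22 in ETS1, 0.00567 in 5.8S, 1.25 in ITS2, 0.13 in 25S, 0.298 in ETS2 and 0.65 with 4 G, 1.97% of occupancy, and 66 above and 47 below (19 in 18S). These counts and shares of occupancy follow the number of positions that each setting keeps. The counts were not set against shares of all positions, so they do not tell whether A-rich positions differ from the rest. A window ending 1 position upstream gave 0.11 in ETS1, -0.0231 in ITS1, 0.88 in 5.8S, 1.08 in ITS2 and 0.546 with 4 G, a level of -0.22 and 8.79% of occupancy. Other positions without G-rich and U-rich windows gave -0.0117 in ETS1, -0.21 in ITS1, 1.03 in 5.8S, 0.47 in ITS2, 0.0403 in ETS2 and a share of 13.5%. Medians over positions gave -0.0408 in ETS1, 1.14 in 5.8S, 0.385 in ITS2 and 0.548 with 4 G. A pseudocount of 10 RPM gave 0.69 in 5.8S and 0.597 with 4 G, leaving out positions under 5 RPM -0.11 in ITS1 and 0.648 with 4 G, the highest 1% left out 0.658 with 4 G and a share of 10.5%, and region ends left out 0.257 in 5.8S and 0.631 with 4 G. Leaving out the stretch that moves a region most, chosen after seeing the data, gave 0.14 in ETS1, -0.19 in ITS1, 0.141 in 5.8S, 0.45 in ITS2 and 0.266 in ETS2. No paired analysis was possible because the single WT replicates belong to another series and were not used.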

Other observations

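A-rich positions were scarce among the highest peaks of the gene in both strains. Of the 171 positions that make up the top 2.5%, 9 (5.26%) were A-rich by the *hmo1Δ* median and 9 by the authors' WT median, where 11.4% of all positions were A-rich. The single replicates gave 10, 11 and 13. The 2 strains shared 106 of their top positions, and 6 of these were A-rich. The ranking took no account of region, and occupancy was higher in the mature rRNAs, where 10.4% of positions were A-rich. Their other positions had a WT median of 119 RPM, against 19.1 RPM in the spacers. Neighbouring windows overlap, so the A-rich positions counted are not independent.

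The rank order of A-rich positions was as reproducible between replicates as that of other positions, with Spearman coefficients of 0.978, 0.987 and 0.975 for replicates 1 and 2, 1 and 3, and 2 and 3, over 779 positions. With the WT median the coefficients were 0.834, 0.795 and 0.853 at A-rich and 0.866, 0.830 and 0.879 at other positions. These are descriptions, since neighbouring positions come from the same library and their windows overlap.

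Just past the last A-rich position of a stretch, the next 5 positions had a change of -0.06 ± 0.03 (SD, n = 3) relative to their region, and those 6 to 9 positions past it -0.11 ± 0.06. Occupancy 6 to 9 positions past the end was 0.23 ± 0.06 above the mean of the region in *hmo1Δ* and 0.34 in WT. Neither was particular to positions past the end. From 9 to 5 positions before the last A-rich position, the change was -0.17 ± 0.04 (SD, n = 3). Occupancy there was 0.20 ± 0.04 above the mean of the region in *hmo1Δ* and 0.36 in WT.

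In ETS2, 13 A-rich positions lie after T1, outside the total that sets the RPM scale, and 3 lie in the annotated Reb1/Nsi1 site. Position 6750, the only A-rich position of its stretch, averaged 43.1 ± 11.8 RPM (SD, n = 3) against 6.51 RPM in WT. The 8 A-rich positions from 6765 to 6772 averaged 5.15 ± 0.955 RPM against 1.47 RPM, and the 4 from 6795 to 6798 averaged 4.14 ± 1.12 RPM against 3.44 RPM, where the replicates fell on both sides.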
